A study of Rattus norvegicus with 8 samples.

Results

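The 10 core circadian clock genes Arntl, Clock, Npas2, Per1, Per2, Per3, Cry1, Cry2, Nr1d1 and Dbp were followed in rat retina after electrical stimulation of the eye. Members were taken by symbol: a probe set was used where the array annotation gives exactly 1 gene symbol and that symbol is a member. All 10 genes were found, with 185 probe sets out of 172924 that carry exactly 1 symbol, and they are 10 of 16633 genes on the array. RefSeq now calls Arntl by the symbol Bmal1, and the array's symbol is kept here. The rule uses symbols and no measured value, but the genes were proposed with earlier results of these data known.

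Both groups were male wild-type Brown Norway rats, 8 weeks old, with no transgene named. In the first group the eye received a current by way of the cornea, called transcorneal electrical stimulation (TES), and in the second a sham treatment, and retinal RNA was collected 4 h later. There are 4 arrays per group, of the type Affymetrix Rat Gene 1.0 ST, which carries several probe sets along the exons of a gene and reads 1 sample per array. The sources used here give neither the stimulus settings nor the lighting nor the time of day of collection. They also do not tie single arrays to single animals, and the p-values therefore reflect the variation among these arrays alone, part of which may be technical.

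The clock is a feedback loop of transcription. The protein of Arntl pairs with that of Clock, or of its relative Npas2, binds DNA at E-boxes and switches on the Per and Cry genes, whose proteins return to the nucleus and inhibit the pair. In a second loop Nr1d1, which encodes the repressor REV-ERB alpha, is switched on by the same pair and represses Arntl, and Dbp is an output gene driven through E-boxes. The mammalian retina has its own clock, which sets daily rhythms in dopamine and melatonin and in the sensitivity of its cells, and Per1 is also known in the suprachiasmatic nucleus of the brain as a gene that light and cyclic AMP switch on.

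E-boxes and D-boxes near the starts of clock genes are known elements of the loop, and the promoters were searched for them. Windows of 300 bases around a transcript start, from 250 bases before it to 50 bases after it, were read from RefSeq (build GRCr8), which held 11 windows for 9 of the 10 genes. Both strands were searched for the E-box CACGTG, the E'-box CACGTT, the D-box TTATGTAA or TTATGCAA bound by Dbp and its relatives, and the cyclic AMP response element TGACGTCA. Of 33469 promoters in the table, 6.42% hold the E-box, 4.83% the E'-box, 1.73% the D-box and 1.83% the cyclic AMP element (both strands). The shorter form TGACG, which is contained in the cyclic AMP element, is in 21.2%. An E-box, E'-box or D-box was found in 3 of the 9 core genes with a window (Cry2, Per2 and Nr1d1), and in none of the windows of the other 6 (Arntl, Clock, Dbp, Npas2, Per1 and Per3). The windows of those 3 and of Ciart, which was chosen after its motifs and values were seen, are shown as examples of a match: Cry2 (chr3:98860388-98860687, minus strand), Per2 (chr9:99496944-99497243, minus strand), Nr1d1 (chr10:84231763-84232062, minus strand) and Ciart (chr2:186112197-186112496, minus strand), a repressor of the clock described with the other genes of the pathway. Capitals mark the E-boxes, E'-boxes and D-box; TGACG is left in lower case.
Cry2: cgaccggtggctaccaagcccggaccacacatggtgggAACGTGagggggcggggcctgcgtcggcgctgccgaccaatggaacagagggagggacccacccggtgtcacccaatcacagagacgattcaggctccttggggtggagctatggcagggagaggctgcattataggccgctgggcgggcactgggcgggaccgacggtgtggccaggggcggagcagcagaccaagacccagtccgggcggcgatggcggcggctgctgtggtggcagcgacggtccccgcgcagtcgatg
Per2: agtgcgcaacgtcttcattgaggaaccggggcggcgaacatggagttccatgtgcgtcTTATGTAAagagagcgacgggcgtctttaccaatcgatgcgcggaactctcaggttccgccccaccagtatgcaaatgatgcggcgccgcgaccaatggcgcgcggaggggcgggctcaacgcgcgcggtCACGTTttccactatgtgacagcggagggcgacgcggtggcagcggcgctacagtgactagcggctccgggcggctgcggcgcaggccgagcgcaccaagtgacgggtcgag
Nr1d1: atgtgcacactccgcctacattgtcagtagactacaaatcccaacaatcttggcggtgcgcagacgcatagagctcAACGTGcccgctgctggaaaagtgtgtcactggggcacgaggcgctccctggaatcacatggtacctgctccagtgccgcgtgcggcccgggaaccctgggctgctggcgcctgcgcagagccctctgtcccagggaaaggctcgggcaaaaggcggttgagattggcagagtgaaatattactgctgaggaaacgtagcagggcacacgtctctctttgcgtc
Ciart: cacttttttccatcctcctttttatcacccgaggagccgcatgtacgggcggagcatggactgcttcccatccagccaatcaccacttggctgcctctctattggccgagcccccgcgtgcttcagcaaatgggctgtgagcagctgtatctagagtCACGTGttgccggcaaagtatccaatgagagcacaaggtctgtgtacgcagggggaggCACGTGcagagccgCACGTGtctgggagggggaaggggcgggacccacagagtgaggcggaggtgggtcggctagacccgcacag
The window of Per2 has a D-box that begins at position -192 from the start, an E'-box at -62 and the letters TGACG at 39. TGACG is also in the window of Per3, at -164 on the other strand, and in that of Sik1, a cyclic AMP response gene described below, at -191 and -180 on the other strand. Cry2 and Nr1d1 have an E'-box on the other strand, at -212 and -174. Ciart has 3 E-boxes, at -93, -35 and -21, around a start that lies 1532 bases inside the gene's span. That of Per2 lies 76 bases inside. A second window of Nr1d1, which starts 2358 bases inside the gene, holds 1 E-box. The window for Per1 lies around a start 5374 bases inside the gene's span and holds none of these motifs, so it is not shown and says nothing about the gene's first promoter. That of Usp2, a gene of clock protein turnover described below, lies around a start 2606 bases inside and holds none either. The starts used for Per3, Npas2 and Arntl lie 443, 340 and 106 bases inside, and that of a second Clock window 37798. Absence of a match in these windows likewise does not extend to other starts of those genes. A match is a run of letters, and no binding was measured here.

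None of the 10 clock genes passed an adjusted p of 0.05 (limma, Benjamini-Hochberg over all 16633 genes), where 0.0% of all genes did. Per1 had the largest difference of the 10. Its mean was lower after TES by 0.26 on the log2 scale, which is 1.20 fold, and 26 of its 27 probe sets were lower. Cry2 was next in p and lower by 0.12, and the other 8 genes differed by -0.12 to 0.02. For the 9 genes other than Per1, the 95% intervals together ran from -0.37 to 0.25. Levels below are log2 GC-RMA signals, and differences are TES minus sham on that scale.

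All 10 genes were well within the range of detected signal. Their means over the 8 arrays were all above the median of all genes (5.16) and 3.10, the 95th percentile of the olfactory receptor genes that served as a guide to low signal. Of the 185 probe sets, 184 had means above that percentile. Signal levels of different genes were not compared, because probe sets differ in brightness for the same amount of RNA. In whole retina, fewer cells of a type and less RNA per cell cannot be told apart.

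**Figure D1:**
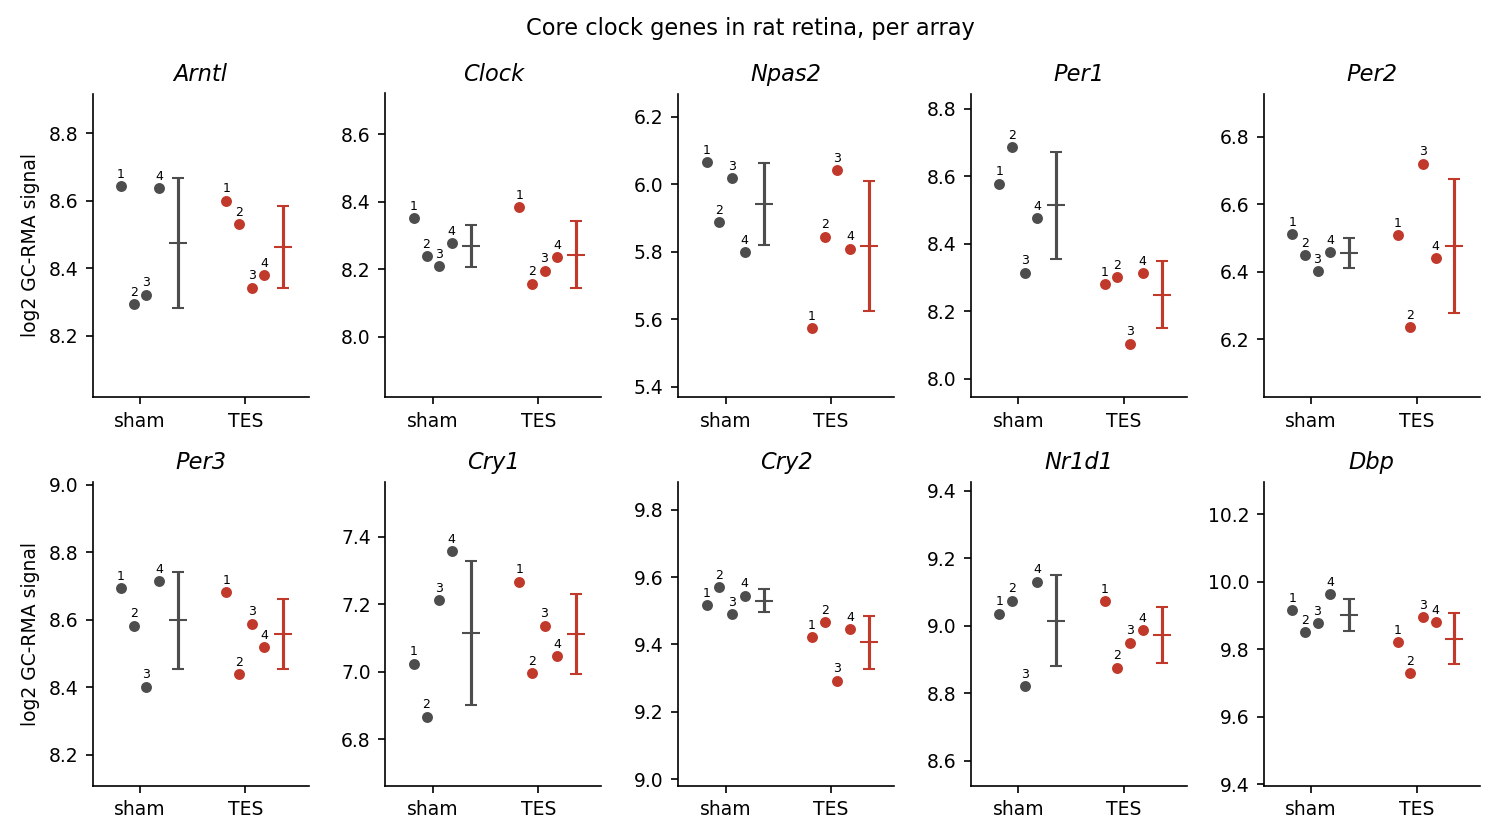
Log2 GC-RMA signal (y axis, a span of 0.9 in every panel) of each core clock gene on every array, numbered by replicate, for 4 sham and 4 TES arrays; the bar gives the mean and SD. Per1 and Cry2 have every TES array below every sham array, Per1 by a margin of 0.00016, and the groups overlap in the other 8 genes.

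Per1 encodes a repressor of the loop. It stood at 8.58, 8.69, 8.31 and 8.48 on sham arrays 1 to 4 and at 8.28, 8.30, 8.10 and 8.31 on TES arrays 1 to 4. The group means were 8.51 ± 0.16 (SD, n = 4) after sham and 8.25 ± 0.10 (SD, n = 4) after TES. Every TES array was below every sham array, but sham 3 and TES 4 were only 0.00016 apart, and TES 3 was the lowest array of all. Over all genes, 3.31% had groups without overlap and 1.98% had them in this direction. The difference of -0.26 had a standard error of 0.099, a 95% interval from -0.48 to -0.05, an unadjusted p of 0.0213 and an adjusted p of 0.843 in limma across all genes. Of all 16633 genes, 94.3% had a smaller absolute difference.

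The study's own selection required at least 1.2 fold and an unadjusted p below 0.05. Applied to limma's p, it takes Per1 and none of the other 9 genes. It takes 3.59% of all genes, and 1.96% as lower after TES, so 1 gene of 10 is not set apart from the background by that count. Per1 was at the edge of the fold minimum. Its groups overlapped with arrays centred on their medians, after quantile normalization and with the median probe set. It was not taken with arrays centred on their medians (difference -0.23), after quantile normalization (-0.25) or with a gene's median probe set (-0.19). With the probe set of highest mean Cry2 was taken in its place, at an unadjusted limma p of 0.0400 (0.0919 in the fit over all probe sets). Leaving out TES 3 gave -0.22 (unadjusted limma p of 0.0668), leaving out sham 1 gave -0.24 (0.0537) and leaving out sham 2 gave -0.21 (0.0609), and Per1 was not taken in any of these. The sign was the same under all 17 alternatives. Variance moderation, the filters on low signal and the replicate number as a block left the difference in Per1 unchanged. Those alternatives could not have turned its sign.

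The probe sets of Per1 nearly all differed in the same direction. TES means were below sham means in 26 of 27, where 51.7% of all 213067 probe sets had lower means after TES. The differences ran from -0.80 to 0.25 with a median of -0.27. Of the 2167 genes with at least 20 probe sets, Per1 was the only gene with so large a share in the lower direction, and no gene had so large a share in the higher direction. That held with arrays centred on their medians and after quantile normalization. The replicate number as a block leaves every difference unchanged, so it could not alter these shares. The count for Per1 was 24 to 26 when any 1 array was left out. Probe sets of a gene share the same RNA and arrays, so they are not independent measurements and the count carries no p. None was past an adjusted p of 0.05 (smallest 0.941, limma over all probe sets), where 0.0% of all probe sets were.

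Single probe sets of Per1 mostly differed in the direction of the gene mean, but in most of them the groups overlapped. Every TES array was below every sham array in 3 of 27, and in 1.55% of all probe sets. No member had a probe set at an unadjusted p under 0.01, the limit set for naming. In Per1, 3 of 27 were under 0.05 in limma, against 5.13% of all probe sets. These, chosen after their values were seen, were 10734903 (difference -0.53), 10734898 (-0.49) and 10734884 (-0.35). Probe set 10734898 read 8.77, 8.87, 8.64 and 8.72 on sham arrays 1 to 4 and 7.96, 8.46, 8.26 and 8.36 on TES arrays 1 to 4. All 4 TES arrays were below all 4 sham arrays there. The widest difference, -0.80, was in 10734905, a dim probe set with a mean of 5.09 whose groups overlapped, and the only higher one, 10734908, had a mean of 6.07.

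**Figure D2:**
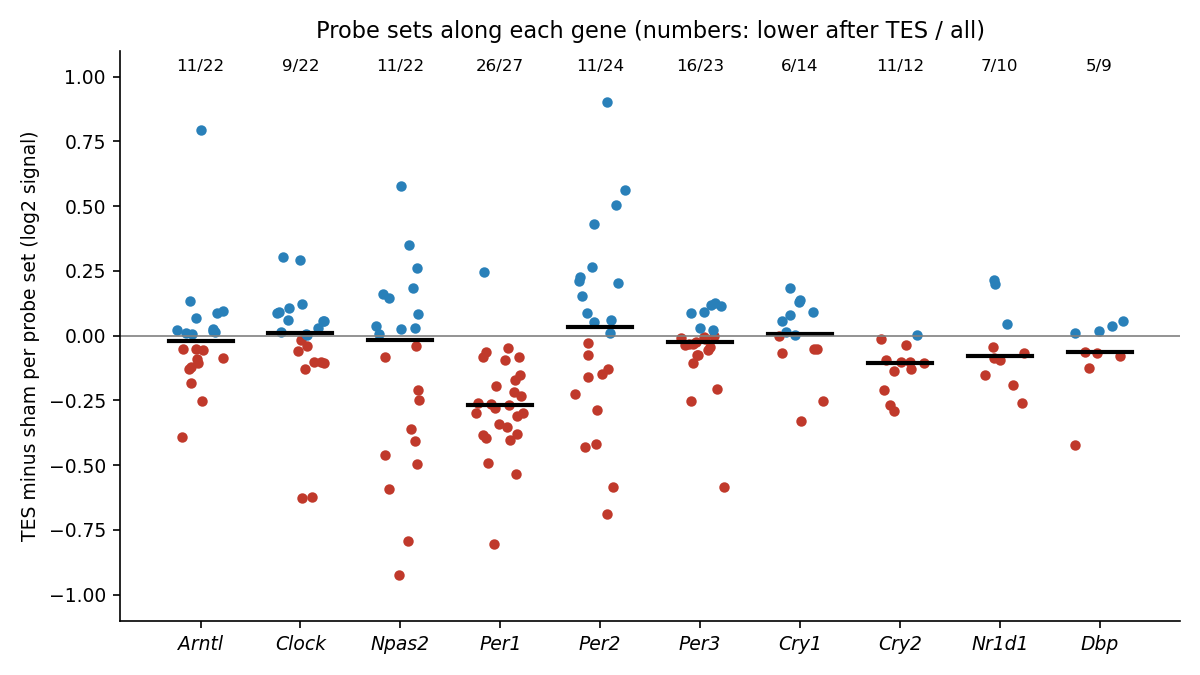
TES minus sham on the log2 scale (y axis) for each of the 185 probe sets, by gene (x axis, spread sideways for legibility), red where lower and blue where higher after TES; black bars are medians and the numbers give lower out of all. Per1 has 26 of 27 points below 0 and Cry2 11 of 12, while Arntl, Npas2 and Per2 lie on both sides.

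Per2 and Per3 are the paralogues of Per1 and encode repressors too, Per2 being needed for a normal rhythm in mice. Per2 read 6.51, 6.45, 6.40 and 6.46 on sham arrays 1 to 4 and 6.51, 6.24, 6.72 and 6.44 on TES arrays 1 to 4. The TES arrays lay on both sides of the sham arrays, with TES 3 highest and TES 2 lowest of all 8. Its difference was 0.02 (95% interval -0.21 to 0.25), with 13 of 24 probe sets higher. Per3 read 8.69, 8.58, 8.40 and 8.72 after sham and 8.68, 8.44, 8.59 and 8.52 after TES. Its groups overlapped almost fully, with a difference of -0.04 (95% interval -0.25 to 0.17) and 16 of 23 probe sets lower. The signs of Per2 and Per3 turned with the median probe set (-0.12 and 0.12) and with that of highest mean (-0.08 and 0.12).

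Whether Per1 differed from its paralogues was tested on the array-wise log2 ratio. The ratio of Per1 to Per2 was lower after TES by 0.29 and that of Per1 to Per3 by 0.22, and the groups overlapped in both. All 70 ways of dividing the arrays were enumerated in an exact two-sided permutation test, which gave p = 0.114 for each, 0.286 after adjustment over the 5 paralogue contrasts made, where the smallest p possible is 0.0286. The 5 contrasts were chosen after the values were seen. So the Per1 difference was not shown to be particular to Per1 within its family. For Per2 against Per3, Cry1 against Cry2 and Clock against Npas2 the differences were 0.06, 0.12 and 0.10, each with an adjusted p of 0.657 in the same exact permutation test.

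Cry1 and Cry2 encode the cryptochromes, the strongest repressors of the Arntl and Clock pair. Cry2 read 9.52, 9.57, 9.49 and 9.54 on sham arrays 1 to 4 and 9.42, 9.47, 9.29 and 9.45 on TES arrays 1 to 4. All 4 TES arrays were below all 4 sham arrays, by 0.023, and TES 3 was again the lowest. The difference was -0.12 with a 95% interval from -0.30 to 0.05 and an adjusted limma p of 0.923 (unadjusted 0.142), and 11 of 12 probe sets were lower. With arrays centred on their medians the groups overlapped and the difference was -0.09. With the probe set of highest mean it was -0.27, more than 1.5 times the value from all probe sets, with an unadjusted limma p of 0.0400 and groups that overlapped. The same probe set had an unadjusted limma p of 0.0919 in the fit over all probe sets.

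Among genes with at least as many probe sets as Cry2, a share of lower probe sets as high as its 91.7% was found in 30 of 5458. In 16 of them the share of higher probe sets was as high. Cry2 also had the smallest spread of the 10 genes, with a residual SD of 0.060, lower than in all but 5.37% of the genes above the median signal. Cry1 read 7.02, 6.87, 7.21 and 7.36 after sham and 7.27, 7.00, 7.14 and 7.04 after TES. It had the widest residual SD of the 10 (0.17), its TES arrays lay inside the range of the sham arrays, and its difference was -0.0037 (95% interval -0.26 to 0.25). Of its 14 probe sets, 8 were higher and 6 lower.

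Arntl, Clock and Npas2 encode the activators. Arntl read 8.64, 8.29, 8.32 and 8.64 on sham arrays 1 to 4 and 8.60, 8.53, 8.34 and 8.38 on TES arrays 1 to 4. The sham arrays fell into a higher and a lower pair, and all TES arrays lay between them. The difference was -0.011 (95% interval -0.25 to 0.23), and its 22 probe sets were split evenly, 11 to 11. Clock read 8.35, 8.24, 8.21 and 8.28 after sham and 8.38, 8.16, 8.19 and 8.23 after TES, with the highest and the lowest array both in the TES group. Its difference was -0.03 (95% interval -0.21 to 0.16), and 13 of 22 probe sets were higher. Of these 22, 2 dimmer probe sets differed by -0.62 and -0.63 with an unadjusted limma p of 0.0248 and 0.0407 (adjusted 0.955 and 0.966), and were picked out after their values were seen. In 2 others every TES array was above every sham array, with an unadjusted limma p not under 0.05, and in 0 of the 22 was every TES array below.

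Npas2 stands in for Clock in the forebrain of mice. It read 6.06, 5.89, 6.02 and 5.80 on sham arrays 1 to 4 and 5.57, 5.84, 6.04 and 5.81 on TES arrays 1 to 4. TES 1 was the lowest array, and the other 3 TES arrays lay within the sham range. The difference was -0.12 (95% interval -0.37 to 0.12) with 11 of 22 probe sets lower, and it was -0.04 without TES 1. Npas2 holds the only member probe set at or below the olfactory receptor percentile.

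Nr1d1 and Dbp are direct targets of the activators. Nr1d1 read 9.04, 9.07, 8.82 and 9.13 after sham and 9.07, 8.88, 8.95 and 8.99 after TES. The TES arrays lay inside the sham range, with a difference of -0.04 (95% interval -0.25 to 0.16) and 7 of 10 probe sets lower. A further 2 probe sets that the annotation shares between Nr1d1 and another gene were not used. Dbp, the transcription factor of the D-box, read 9.92, 9.85, 9.88 and 9.96 after sham and 9.82, 9.73, 9.90 and 9.88 after TES. TES 2 was the lowest and the groups overlapped, with a difference of -0.07 (95% interval -0.24 to 0.10). The E'-box genes with windows printed above, Per2, Cry2 and Nr1d1, thus had differences of 0.02, -0.12 and -0.04.

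**Figure D3:**
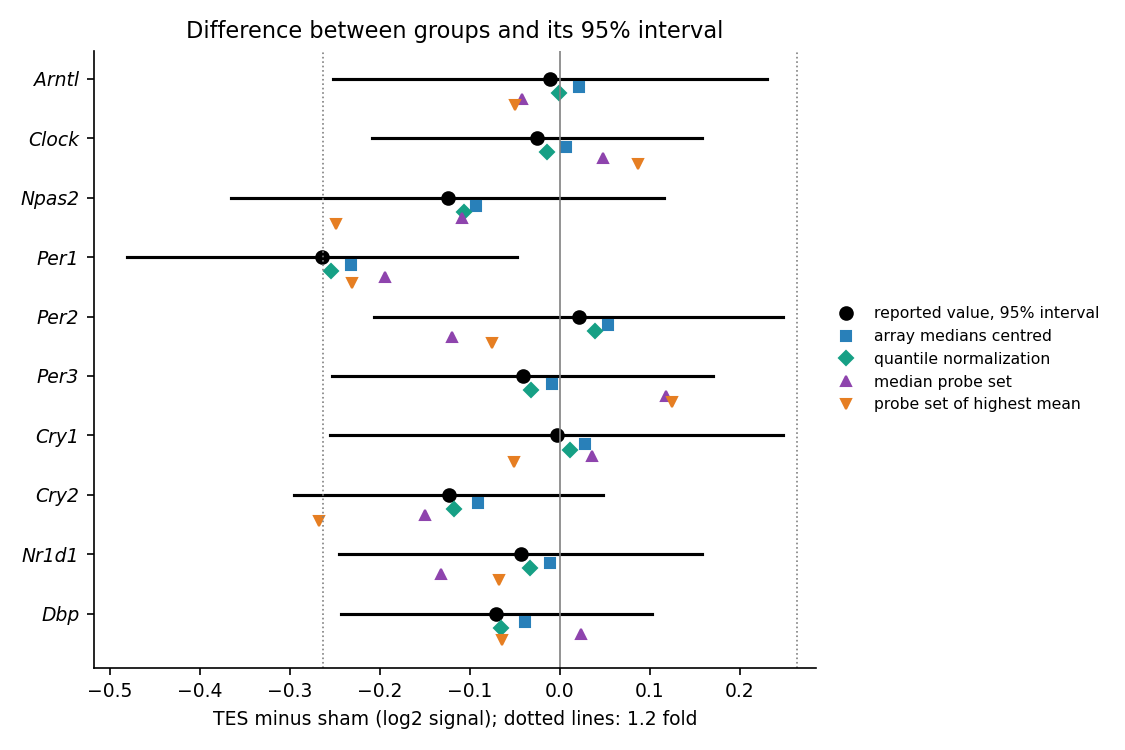
Difference between group means, TES minus sham on the log2 scale (x axis), for each core clock gene, with its 95% interval from limma (black) and the difference under 4 other ways of scaling arrays or summarising probe sets (coloured marks). Only the interval of Per1 (-0.48 to -0.05) leaves out 0, and its coloured marks lie inside the dotted 1.2 fold line.

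By sign alone, 9 of the 10 genes were lower after TES and only Per2 higher, but with arrays centred on their medians 6 were lower and after quantile normalization 8. The median difference of the 10 genes was -0.04 against -0.01 over all genes, of which 54.9% were lower. At the level of probe sets, 113 of 185 were lower, where 51.7% of all were, and 102 with arrays centred on their medians, where 46.2% of all were. Of the 185, 9 (4.86%) had an unadjusted limma p under 0.05, against 5.13% of all probe sets. Of the 10 genes, 1 (Per1) had an unadjusted p under 0.05, against 5.57% of all genes.

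Activators and repressors of the loop peak at different times of day, so genes could also vary together from array to array. Pearson correlations were computed over the 8 arrays for all 45 pairs, with exact permutation tests. They ranged from -0.58 to 0.90 with a median of 0.28, and 34 were positive. No pair passed an adjusted p of 0.05 over the 45, by Pearson's r or Spearman's rho, and 3 had an unadjusted p under 0.05 by r. Per1 and Cry2 had r = 0.90 (exact p = 0.00208, adjusted 0.0675) and rho = 0.95 (adjusted exact p = 0.0513). TES 3 was lowest and sham 2 highest in both genes.

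For Per1 and Cry2, r was 0.75 for deviations from the group means, 0.87 with centred arrays, 0.81 with the median probe set and 0.96 without the 2 arrays farthest from the median of Per1. Per3 and Nr1d1 had r = 0.90 (exact p = 0.00300, adjusted 0.0675) and rho = 0.79 (adjusted exact p = 0.516). For this pair r was 0.90 within groups and 0.86 with centred arrays, but 0.67 without the 2 arrays farthest from the median of Per3 and 0.20 with the median probe set, so it rests on those arrays and on the summary of the probe sets. Arntl and Nr1d1, which act on each other, had r = 0.46 (exact p = 0.248, adjusted 0.752).

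**Figure D4:**
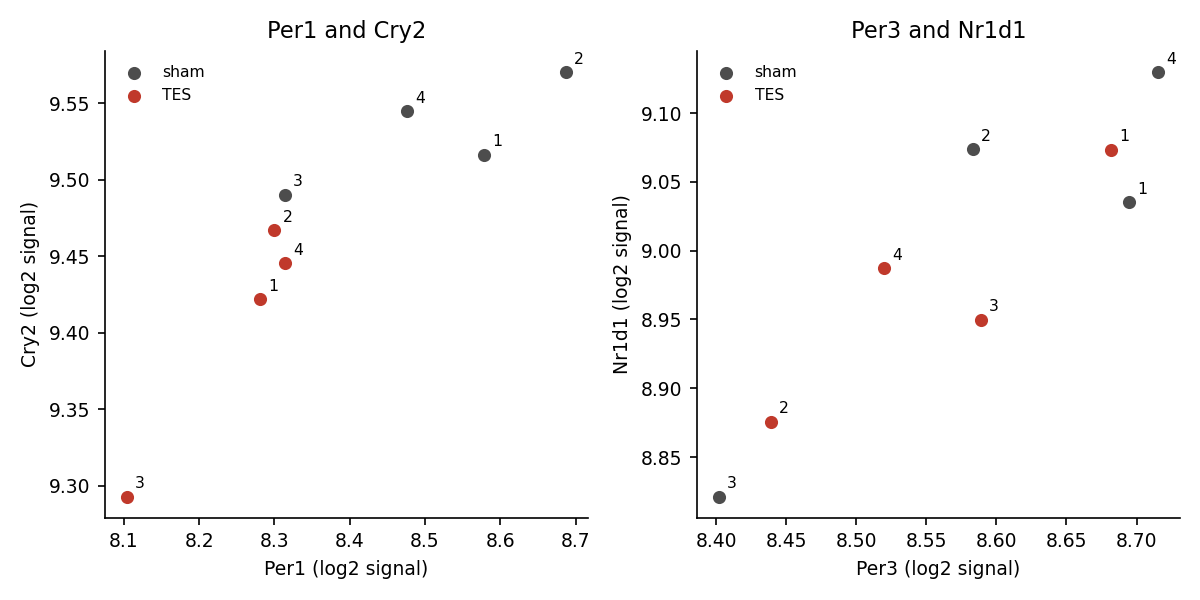
Log2 signal of Cry2 against Per1 (left) and of Nr1d1 against Per3 (right) on the 8 arrays, numbered by replicate, grey for sham and red for TES. Per1 and Cry2 are both lowest on TES 3 and both highest on sham 2 (r = 0.90), and in the right panel sham 3 and TES 2 are lowest in both genes.

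The genes most like a clock gene across the 8 arrays were sought among the 8316 others above the median signal. For Per1 they were Arid1b (r = 0.98), a chromatin remodelling subunit, the kinase gene Mast4 (0.96) and Cstf1 (0.96), of the machinery that cleaves messenger RNA, and Cry2 ranked 24. For Dbp they were Rimbp2 (0.98), Zc3h7b (0.98) and Fam113a (0.96), and its nearest clock gene, Per2 (0.57), ranked 1067. For Arntl they were Arfgef1 (0.96), Rps6kb2 (0.96) and Smurf2 (0.96), and its nearest clock gene, Per3 (0.63), ranked 1053. With 8 arrays and so many genes such values are a description, and the genes share arrays and their scaling.

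Other genes of the clock pathway were taken by list. Of 12 genes of the second loop and of output, 10 were matched, and 7 were lower and 3 higher after TES (median difference -0.08). Ciart, listed on the array as RGD1566380, encodes a repressor of the Arntl and Clock pair, and its 3 E-boxes are printed above. It read 7.85, 8.11, 7.59 and 7.84 on sham arrays 1 to 4 and 7.56, 7.80, 6.83 and 7.22 on TES arrays 1 to 4. TES 1, TES 3 and TES 4 were below every sham array, while TES 2 lay within the sham range. The difference was -0.49 (95% interval -0.90 to -0.08) with an adjusted limma p of 0.843 (unadjusted 0.0229), and all 6 probe sets were lower. It was -0.27 with the probe set of highest mean, and -0.32 without TES 3. The unadjusted p was above 0.05 in both, and without TES 4 (0.0578) or sham 2 (0.0685). Nfil3, which competes with Dbp at D-boxes, differed by -0.16 (95% interval -0.88 to 0.56), and the other 8 genes of the list differed by less than that in either direction, among them Tef (-0.13) and Cipc (0.13), chosen after their values were seen.

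Of 11 genes of clock protein turnover, 9 were matched, with 7 lower and 2 higher (median difference -0.04). Usp2, a deubiquitinating enzyme with known rhythmic expression in rodent tissues, led by p. It read 9.18, 9.17, 9.02 and 9.17 on sham arrays 1 to 4 and 8.99, 8.84, 8.84 and 8.68 on TES arrays 1 to 4. The groups did not overlap. The difference was -0.29 (95% interval -0.49 to -0.10) with an adjusted limma p of 0.823 (unadjusted 0.00687), and all 16 probe sets were lower. Of 3399 genes with at least 16 probe sets, Usp2 was the only one with all of them lower, and 1 had all of them higher. Its unadjusted limma p stayed under 0.05 under all alternatives except the probe set of highest mean (difference -0.25, p of 0.0849). Timeless differed by -0.12, and the casein kinases Csnk1d and Csnk1e, which mark the Per proteins for degradation, by 0.02 and -0.02.

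Of 11 genes of retinal output and light input, all were matched, with 6 lower and 5 higher (median difference -0.00038). Aanat, which encodes the penultimate enzyme of melatonin synthesis, read 4.03, 4.17, 3.93 and 3.82 after sham and 3.75, 3.74, 3.41 and 3.81 after TES. The groups did not overlap, with sham 4 and TES 4 next to each other. The difference was -0.31 (limma p of 0.0180 unadjusted and 0.843 adjusted), only 4 of 7 probe sets were lower, and the sign turned with the median probe set (0.089) and with that of highest mean (0.038). Without TES 3 its difference was -0.22 (limma p of 0.0589 unadjusted) and without sham 2 it was -0.25 (0.0531). Mtnr1a, a melatonin receptor gene at the level of olfactory receptors (mean 2.69), differed by 0.24. Opn4, the melanopsin of light-sensitive ganglion cells, differed by 0.22 (95% interval -0.13 to 0.57), with all 10 probe sets higher.

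Per1 is also a cyclic AMP response gene, and 7 such genes were measured, 5 higher and 2 lower (median difference 0.10). The 2 of largest difference were Egr1 (1.15, 95% interval -0.16 to 2.47) and Fos (0.83, 95% interval -0.12 to 1.78), both higher, in the direction opposite to Per1. They depended on single arrays. Without TES 2 the difference was 1.75 in Egr1 and 1.26 in Fos, each with an unadjusted limma p of 0.0035. Without sham 4 it was 1.64 (0.0120) and 1.03 (0.0452). The difference in Egr1 fell to 0.87 to 0.94 without TES 1, TES 3, sham 1 or sham 2 (unadjusted limma p of 0.183 to 0.205). That of Fos fell to 0.49 without TES 3 (0.248). Sik1, a kinase gene that dampens this response in the mouse clock and is listed on the array as Snf1lk, was lower like Per1. It read 5.96, 6.30, 5.81 and 5.74 on sham arrays 1 to 4 and 5.31, 5.87, 5.45 and 5.62 on TES arrays 1 to 4. TES 2 lay within the sham range and the other 3 TES arrays below it. Its difference was -0.39 (95% interval -0.71 to -0.07), with an adjusted limma p of 0.843 (unadjusted 0.0213) and 14 of 16 probe sets lower. Of 3399 genes with at least 16 probe sets, 20 had as high a share lower and 8 had as high a share higher. The unadjusted limma p of Sik1 was above 0.05 without TES 1 (0.0681), TES 3 (0.0553) or sham 2 (0.0654), with the median probe set (0.0584) and with that of highest mean (0.187). All 5 lists were chosen by function, but with earlier results of these data known, so counts over them are a description and not a test. No gene on the 5 lists passed the adjusted threshold, where 0.0% of all genes did. The core list and each of the other 4 held 1 gene with an unadjusted p under 0.05, all lower after TES, against 3.22% of all genes in that direction. Over the 17 alternatives the 5 lists held 1 to 5 such genes lower and 0 to 3 higher. Without TES 3, 1 was lower (Usp2) and without sham 2, 3 were (Nampt, Tef and Usp2). With the median probe set 2 were lower (Ciart and Usp2), and with the probe set of highest mean only Cry2 was. Egr1, Fos and Junb were higher without TES 2, Egr1 and Fos without sham 4 and with an intensity trend in eBayes, Egr1 and Mtnr1a with the replicate number as a block, and Mtnr1a in 4 others.

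**Figure D5:**
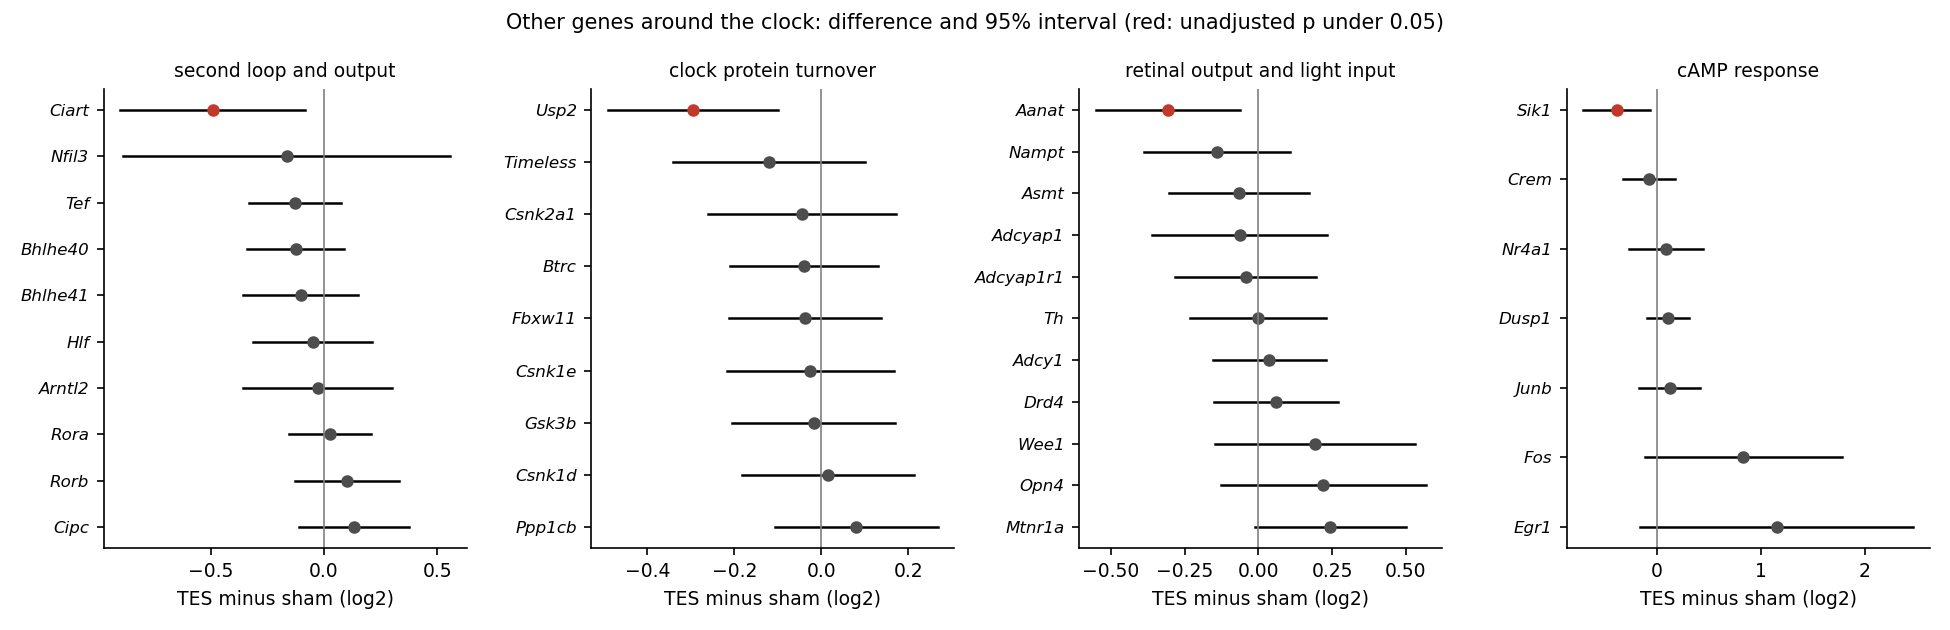
TES minus sham on the log2 scale (x axis, its own range in each panel) with 95% intervals from limma for the other genes of the clock pathway, in 4 lists. The red points Ciart (-0.49), Usp2 (-0.29), Aanat (-0.31) and Sik1 (-0.39) have an unadjusted p under 0.05, and none passed the adjusted threshold.

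Markers of other tissue differed between the same arrays. Retinal markers of rods, cones, bipolar, amacrine and ganglion cells and Mueller glia were present at mean list levels between 7.01 and 11.03 on every array, and their list medians differed by no more than 0.05 between groups, although the ganglion cell marker Isl2 differed by -0.49 (limma p of 0.00535 unadjusted and 0.817 adjusted). Pigment epithelium markers were lower after TES in 5 of 6, with mean list levels of 5.28 to 6.06 after TES and 5.69 to 6.11 after sham. In 4 of the 6 the unadjusted limma p was under 0.05, with differences of -0.50 in Rpe65, -0.50 in Rdh5, -0.48 in Rgr and -0.47 in Ttr, and the list median of -0.48 was a wider difference than the -0.26 of Per1. These 4 p-values depended on single arrays. They were 0.0514 to 0.146 without TES 1, 0.0625 to 0.151 without TES 4 and 0.000266 to 0.00836 without TES 2. With arrays centred on their medians, Rgr and Ttr had 0.0571 and 0.0749, and Rpe65 and Rdh5 stayed under 0.05. Lens markers were higher in 4 of 4 matched, with 4.38 to 6.33 after TES and 3.71 to 5.47 after sham. TES 3, the lowest array for Per1, Cry2 and Ciart, was the highest for lens. Sham 2, the highest array for the same genes, was the highest of the sham arrays for lens. Among the lens markers Mip differed by 0.48 and Crygc by 0.43 (unadjusted limma p of 0.00641 and 0.0126). No marker of any list passed the adjusted threshold. Erythrocyte markers were higher in 3 of 3 (5.91 to 6.45 against 5.27 to 6.48), and microglia markers were lower in 4 of 4 (4.00 to 4.31 against 4.25 to 4.39). Best1, Crygc and Alas2 were at or below the olfactory receptor percentile. The part of these tissues in the clock gene values was not tested. The array medians lay between 5.32 and 5.41, and the signals of any pair of arrays correlated across genes with r of 0.990 to 0.994, genes not being independent replicates.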

How the data were processed

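Retinal RNA of 4 stimulated and 4 sham samples was measured on Affymetrix Rat Gene 1.0 ST arrays. Per the series' design text and the submitters' processing notes, the authors applied GC-RMA in GeneSpring GX, and the deposited values are log signals per probe set. Base 2 was taken from their range, and the deposited log2 values were used as given, between 0.55 and 13.23. The genome build of the array annotation was not given in the sources used here.

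Of 213067 probe sets, 38482 have no symbol and 1661 have several, and these were left out of gene means. A gene's level was the mean of its probe sets on each array. Groups were compared with limma 3.58.1 in R 4.3.3 (lmFit and eBayes, two-sided, Benjamini-Hochberg adjustment over all genes or all probe sets), and pairs of genes with exact permutation tests in Python 3.11.15. The limma fit was also run on simulated data with independent noise for each gene, and the outcome is not given here. The SAM selection of the design text was not run, and its thresholds of 0.05 and 1.2 fold were applied to limma's p. Precision is limited by the small number of arrays.

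The members and all lists were chosen with earlier results of these data known. From each further list, genes with an unadjusted p under 0.05 and the 2 of largest absolute difference were named, a few others being named after their values were seen. The 3 genes of highest r were named for Per1, Dbp and Arntl. Alternatives covered array scaling, probe set summary, filters on low signal, variance moderation, the replicate number as a block and leaving out each array.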

Additional observations from a re-analysis of the deposited data

Results flagged for a closer look

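Per1 on TES 3 read 8.10, below the 8.28 to 8.31 of the other 3 TES arrays. The gap was 0.842 of the range of the group, past Dixon's 95% critical value for 4 samples. This was 1 of 20 groups checked (10 genes in each of the TES and sham groups), and chance marks about 1 in 20. Without TES 3 the difference in Per1 was -0.22.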

How the results depend on the processing

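Over 17 alternatives, 147 of 170 gene differences kept their sign and 23 reversed, and none had an adjusted limma p under 0.05 (lowest 0.748). Part of the 147 could not have reversed. Variance moderation, the filter on genes below the median signal and the replicate block leave every difference as it is. Leaving out low probe sets changed only that of Npas2. The count of core genes past an unadjusted p of 0.05 and 1.2 fold was 1, but 0 with centred array medians, quantile normalization or the median probe set, and 0 to 1 when 1 array was left out. Signs reversed with centred medians for Cry1 (0.029), Arntl (0.022) and Clock (0.0064), with quantile normalization for Cry1 (0.012), with the median probe set for Per2 (-0.12), Per3 (0.12), Cry1 (0.036), Clock (0.048) and Dbp (0.024), and with the probe set of highest mean for Per2 (-0.075), Per3 (0.12) and Clock (0.087). Leaving out 1 array gave -0.060 to 0.10 for Per2, -0.086 to 0.077 for Cry1, -0.071 to 0.046 for Arntl and -0.073 to 0.0029 for Clock. The cause was not tested. Over all genes that selection took 597, and 129 of 8317 with genes below the median signal left out. Same-numbered arrays had correlations of deviations of 0.12, 0.13, 0.0056 and -0.12, so the numbers were not taken as pairs. With the replicate number as a block, Per1 differed by -0.26 (limma, adjusted p = 0.748), and 678 genes were taken. All 10 genes were above the low-signal guide. Whether array number or small differences account for the absence of adjusted calls was not tested.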
